A study of Mus musculus with 4 samples.

Results

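Rab GTPases are small membrane-bound switches that direct vesicle traffic. They were studied here in the brain cortex of mice given oral TCQA, the caffeic acid ester tricaffeoylquinic acid. The members were taken by gene symbol, as Rab followed by a number and at most 1 letter, which left out interacting proteins such as Rab3gap1 and Rab11fip1. This gave 56 genes of the 19505 measured under a symbol. The rule kept the brightest row per symbol, but each of the 56 symbols had 1 row, so that no measured value entered the choice of rows. The family was taken up because Rab4a and Rab2b were already known to be among the larger differences in these data. The values of both are therefore given as a description, without a p-value. Where counts of called members include them, this is said.

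The TCQA group and the water group held 2 Clariom S mouse arrays each, 4 in all. Both groups were male SAMR1 mice, the senescence-resistant strain of the SAM series, with no transgene named in the labels, caged singly for 4 months from 7 months of age. From 11 months of age the TCQA group received 5 mg/kg of TCQA daily for 1 month and the water group received MilliQ water. Nothing in the labels ties an array to a single mouse or a pool, so that every error below rests on the spread between arrays, which may be technical.

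A Rab protein is active while it carries GTP and is then recruited to the membrane of one compartment, where it binds effectors such as tethers, motors and coats. Exchange factors load the GTP, activating proteins of the TBC family speed its hydrolysis, and GDP dissociation inhibitors carry the inactive, lipid-modified protein back through the cytosol. In neurons the family serves recycling of receptors at dendrites, transport of Golgi carriers and release of synaptic vesicles.

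The values are log2 signals per transcript cluster, and differences are log2 changes, TCQA minus water. Signals of different genes come from different probes and are not ranked against each other. The 5222 negative control probe sets had a median signal of 6.98 and a 95th percentile of 11.06, against a median of 7.01 for all tested clusters. Of the 56 members, 15 had a mean signal below the negative control median, 18 lay between that median and the 95th percentile, and 23 lay at or above it. No member was removed for low signal. Rab3a, Rab6b and Rab5a, synaptic, Golgi and endosomal members that neurons are known to use, were in the brightest range. Of the 6 synaptic members 3 were in that range, Rab27b lay in the middle, and Rab26 and Rab3d were below the negative control median. Rab25 and Rab17, known from epithelia, and Rab32 and Rab38, known from pigment cells, were also below the negative control median.

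In the treated cortex 2 members stood apart from the family. Rab4a, which returns cargo quickly from early endosomes to the cell surface, and Rab2b, which acts between the endoplasmic reticulum and the Golgi, were 2.33-fold and 2.26-fold higher after TCQA. Most other members differed little, between -0.64 and 0.51 on the log2 scale. A slight upward displacement was found over the family as a whole: 40 of 56 members were higher after TCQA, with a median change of 0.15. It did not reach every member, since 46.7% of those below the negative control median were higher, against 95.7% of the brightest. Of all 19572 tested clusters 50.5% were higher, with a median of 0.0028. That share also rose with signal, from 42.3% below the negative control median to 59.6% in the brightest range, so it is not matched to the family in signal. Without Rab4a and Rab2b, 38 of 54 members were higher, with a median of 0.13.

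A member is named as called below when limma, fitted over all 19572 clusters, gave an unadjusted p under 0.05. Rab4a and Rab2b are left out of these counts, since their differences led to the choice of the family. Of the other 54 members 3 (5.56%) were called, 2 higher and 1 lower, against 7.37% of all clusters called in either direction, 3.48% higher and 3.89% lower. Leaving out 2 members with differences known beforehand lowers this share by construction, so it is not read against that of all clusters. With both kept, 5 of 56 (8.93%) were called, 4 higher and 1 lower. The submitters' design text asks for more than 2-fold together with an unadjusted p under 0.05. Of the other 54 members 0 met those criteria in limma, against 0.664% of all clusters. That count was fixed in advance, since Rab4a and Rab2b were the only members that met them. After Benjamini-Hochberg adjustment in limma 0 of 54 members and 0 of 19572 clusters passed, and the smallest adjusted p among the 54 was 0.673.

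**Figure D1:**
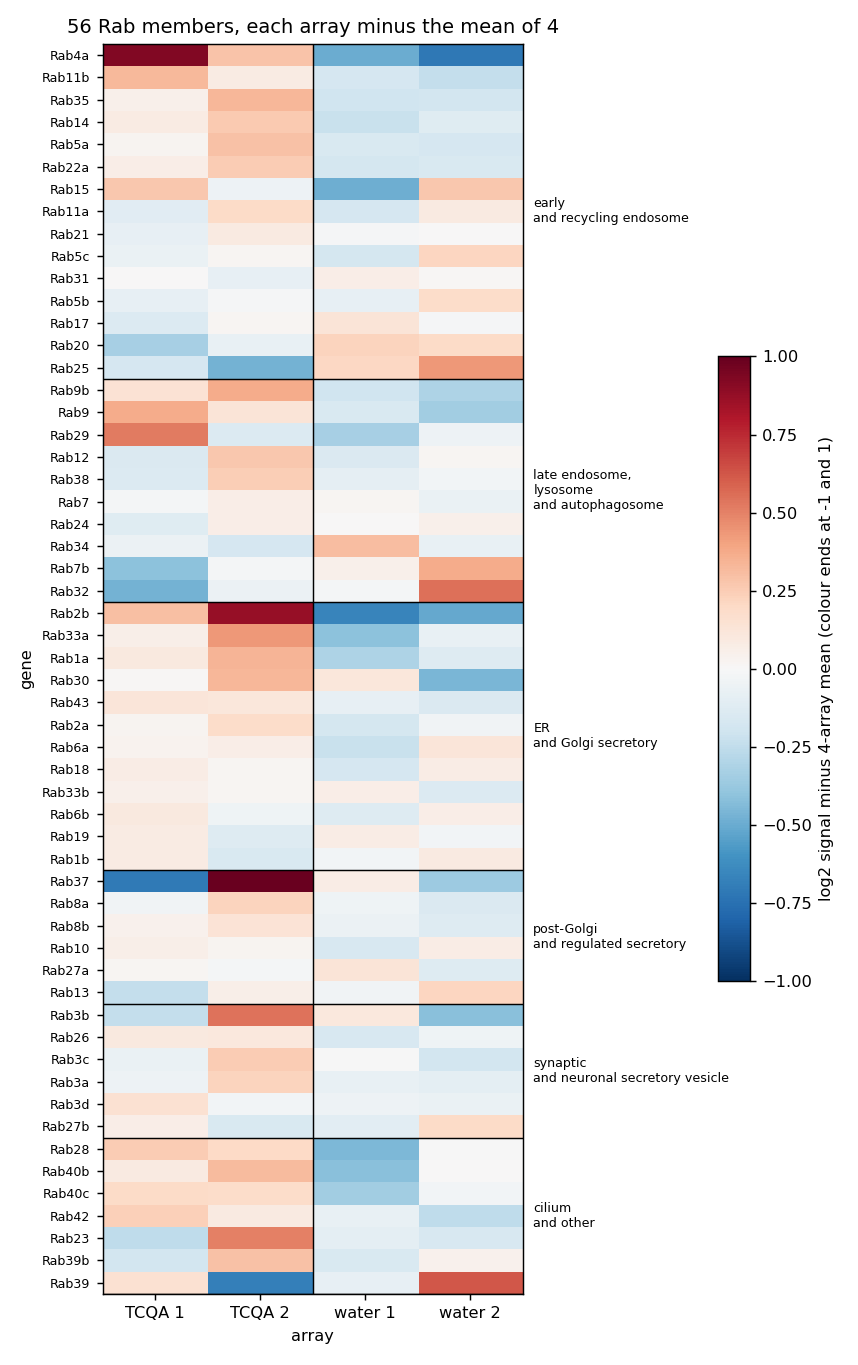
Signal of each of the 56 members (rows, grouped by compartment and sorted by change) on each of the 4 arrays (columns), as log2 signal minus the mean of the 4 arrays. Rab4a and Rab2b are high on both TCQA arrays, while most rows of TCQA 2 are pale red and most rows of water 1 are pale blue, and Rab37 differs mainly between the TCQA arrays.

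Rab4a measured 12.54 and 11.90 on the TCQA arrays, against 11.12 and 10.90 on the water arrays. Both TCQA arrays lay above both water arrays, and the group means were 12.22 ± 0.45 after TCQA and 11.01 ± 0.16 after water (SD, n = 2 each). The change was 1.22 with a standard error (SE) of 0.26. Every SE here is from limma, which draws the variance of each cluster towards that of all clusters. For Rab4a and Rab2b it is smaller than their SDs alone would give. Leaving out TCQA 1 gave 0.90, which is under 2-fold, and leaving out TCQA 2 gave 1.54. The change was 1.33 without water 1 and 1.11 without water 2. Of the TCQA arrays the first was the higher one for Rab4a, the opposite of Rab2b.

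Rab2b measured 9.98 and 10.55 on the TCQA arrays, against 9.01 and 9.17 on the water arrays. The groups did not overlap, and their means were 10.27 ± 0.40 after TCQA and 9.09 ± 0.11 after water (SD, n = 2 each). The change was 1.17 with an SE of 0.25. Leaving out TCQA 1 gave 1.46, and leaving out TCQA 2 gave 0.89, which is under 2-fold. The change was 1.10 without water 1 and 1.25 without water 2. Its paralogue Rab2a, which serves the same route, measured 16.22 and 16.38 with TCQA, against 16.02 and 16.16 with water. The change of Rab2a was 0.21 with an SE of 0.19 and was not called (limma, unadjusted p = 0.317). The difference between the changes of Rab2b and Rab2a was not tested. Whether single probes separate close paralogues was not examined here.

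**Figure D2:**
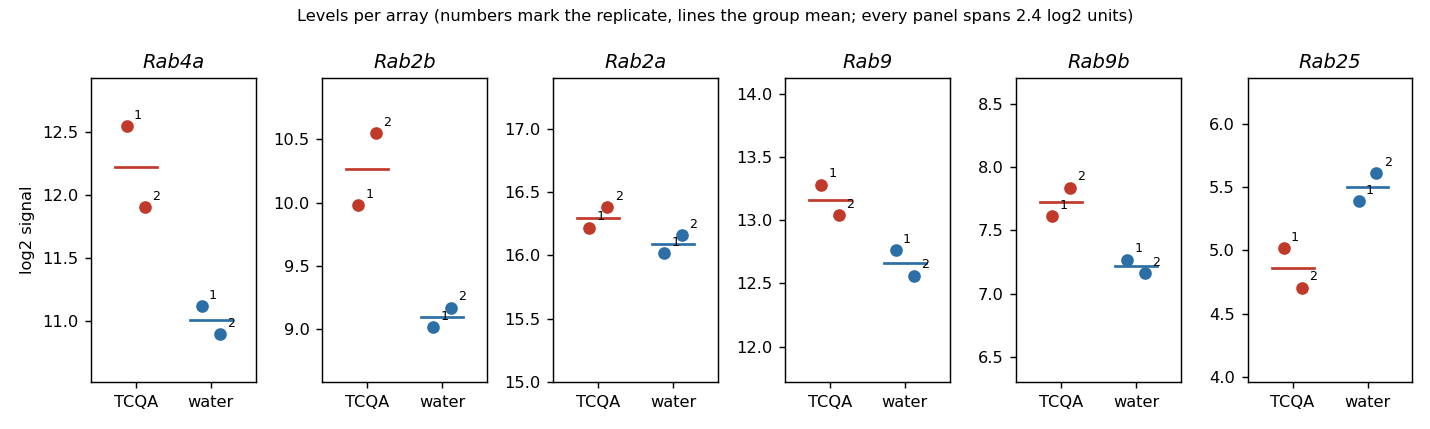
Log2 signal on each array (points, numbered by replicate) with the group mean (line) for Rab4a, Rab2b, its paralogue Rab2a and the 3 called members, TCQA left of water, each panel spanning the same log2 range. The TCQA and water points do not overlap in any panel, and the gap is widest for Rab4a and Rab2b and narrowest for Rab2a.

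Rab9, which serves the return of sorting receptors from late endosomes to the trans-Golgi network, and its paralogue Rab9b were the called members that were higher after TCQA. Rab9 measured 13.28 and 13.04 on the TCQA arrays, against 12.76 and 12.56 on the water arrays, a change of 0.50 with an SE of 0.20 (limma, unadjusted p = 0.0462). Rab9b measured 7.61 and 7.84 on the TCQA arrays, against 7.27 and 7.16 on the water arrays, a change of 0.51 with an SE of 0.20 (limma, unadjusted p = 0.0380). The groups did not overlap for either gene, and both had an adjusted p of 0.673 in limma. Neither call held when any 1 array was left out, where Rab9 ranged from 0.38 to 0.62 and Rab9b from 0.40 to 0.62. Rab9b lay close to the negative control median, so that its size of change is uncertain.

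Rab25, a relative of Rab11 known from recycling endosomes of epithelia, was the 1 called member that was lower after TCQA. It measured 5.02 and 4.71 on the TCQA arrays, against 5.39 and 5.61 on the water arrays. The change was -0.64 with an SE of 0.21 (limma, unadjusted p = 0.0215, adjusted p = 0.673). All 4 values lay below the negative control median. The call was lost without TCQA 2, at -0.48, and without water 2, at -0.53.

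**Figure D3:**
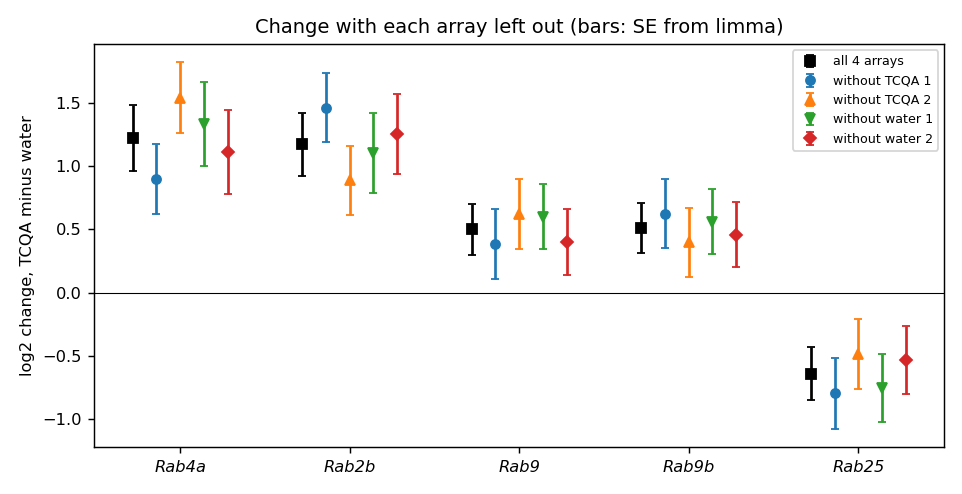
Log2 change, TCQA minus water, of Rab4a, Rab2b and the 3 called members with all 4 arrays and with each array left out, with the SE from limma as bars. Every point of Rab4a, Rab2b, Rab9 and Rab9b lies above 0 and every point of Rab25 below it, while Rab4a drops to 0.90 without TCQA 1 and Rab2b to 0.89 without TCQA 2.

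The sequences just upstream of Rab2b, Rab9 and Rab9b are shown because the data compare transcript levels of these genes. Promoter windows were taken from RefSeq on GRCm38.p6, of which the 250 bases before the annotated start were used, and 47 of the 56 members were matched, with 59 windows in all. Rab4a, the member with the largest change, was not among those matched. Each window below is written from 5′ to 3′ on the gene's strand, which is the minus strand for all of them, and capitals mark matches on either strand to a motif searched.
Rab2b, chr14:52279396-52279645: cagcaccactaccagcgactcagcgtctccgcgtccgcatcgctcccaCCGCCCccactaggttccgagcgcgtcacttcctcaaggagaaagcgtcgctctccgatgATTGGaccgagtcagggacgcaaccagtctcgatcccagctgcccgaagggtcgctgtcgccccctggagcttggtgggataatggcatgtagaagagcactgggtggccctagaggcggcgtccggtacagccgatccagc
Rab9, chrX:166479868-166480117: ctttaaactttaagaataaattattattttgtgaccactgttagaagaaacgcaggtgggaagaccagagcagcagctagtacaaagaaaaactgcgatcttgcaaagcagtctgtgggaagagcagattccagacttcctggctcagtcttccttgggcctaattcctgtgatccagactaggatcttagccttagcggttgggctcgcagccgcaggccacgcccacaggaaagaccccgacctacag
Rab9b, chrX:136868557-136868806: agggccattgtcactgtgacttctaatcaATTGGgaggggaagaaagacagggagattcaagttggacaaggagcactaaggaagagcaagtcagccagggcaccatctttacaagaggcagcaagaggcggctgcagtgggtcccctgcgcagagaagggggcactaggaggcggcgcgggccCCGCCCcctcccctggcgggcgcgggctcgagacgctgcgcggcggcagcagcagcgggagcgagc

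Of the motifs searched, Rab2b and Rab9b each hold 1 GC box (GGGCGG) and 1 CCAAT box (CCAAT), which do not overlap, and Rab9 holds none. The windows have 23, 7 and 16 CpG dinucleotides for Rab2b, Rab9 and Rab9b, against a median of 15 over the 59 Rab windows and of 6 over all 32851 windows. A GC box is present in 66.1% of Rab windows and in 32.7% of all windows. A CCAAT box is present in 39.0% of Rab windows and in 33.8% of all. The E-box CACGTG is present in 8.47% of Rab windows and in 6.02% of all, the cAMP response element TGACGTCA in 3.39% and 1.55%, and the antioxidant response element core TGACNNNGC in 10.2% of both. These matches are letters in a window and do not show binding.

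Among the 15 members of early and recycling endosomes, 9 were higher and 6 lower after TCQA, with a median of 0.081. Beside Rab4a, Rab11b, of the slower recycling route, measured 13.94 and 13.70 with TCQA, against 13.45 and 13.38 with water, a change of 0.40. Rab11a, its paralogue on the same route, had a change of 0.081. Rab35, which recycles cargo at the plasma membrane, Rab14, which links Golgi and endosomes, and Rab5a and Rab22a, of early endosome fusion and sorting, had changes of 0.38, 0.34, 0.33 and 0.32. The groups did not overlap for any of these 4 genes, none of which was called. Of all clusters 25.0% in the middle range of signal and 29.9% in the brightest were separated upwards in this way. These shares also stand beside the separated genes of the classes below. In the whole class 6 members were separated upwards and 3, Rab25, Rab20 and Rab31, downwards. Rab5b and Rab5c, paralogues of Rab5a, had changes of -0.098 and -0.041 with overlapping groups. The class median was -0.046 without TCQA 2 and -0.045 without water 1, so that its direction depended on single arrays.

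The 10 members of late endosomes, lysosomes and autophagosomes were higher in 6 cases and lower in 4, with a median of 0.082. Rab7, which drives fusion of late endosomes with lysosomes, measured 16.53 and 16.61 with TCQA, against 16.57 and 16.48 with water, a change of 0.049 with an SE of 0.19. Rab12 had a change of 0.13 and Rab24, of autophagy, one of -0.059. Rab29, a partner of the kinase Lrrk2, had a change of 0.38 with overlapping groups, of which TCQA 1 was the high array at 6.53. Every array of Rab29 lay below the negative control median. Rab7b and Rab32 had changes of -0.42 and -0.53, with every array of both genes below the negative control median. The class median was -0.078 without TCQA 2.

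The 12 members of the endoplasmic reticulum and Golgi were higher in 10 cases, with a median of 0.16. Rab1a, which moves cargo from the endoplasmic reticulum to the Golgi, measured 14.67 and 14.91 with TCQA, against 14.26 and 14.44 with water, a change of 0.44 with an SE of 0.20 (limma, unadjusted p = 0.0677), while its paralogue Rab1b had a change of -0.067. Rab33a, a neuronal member of vesicles bound for axons, had a change of 0.49 with groups that did not overlap (limma, unadjusted p = 0.0761). Rab6a and Rab6b, of traffic within and back from the Golgi, had changes of 0.11 and 0.062. Rab18, of the endoplasmic reticulum and lipid droplets, had one of 0.094. No member of this class was lower by more than 0.067, and its median stayed between 0.13 and 0.21 with any 1 array left out.

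Of the 6 members of post-Golgi and regulated secretion, 4 were higher and 0 were called, with a median of 0.13, which was 0.035 without TCQA 2 and 0.066 under quantile normalization. Rab8a and Rab8b, of carriers to the plasma membrane, had changes of 0.185 and 0.178 with groups that did not overlap. For Rab8a the gap was bare, with the lower TCQA array at 11.22 and the higher water array at 11.21. Rab10, of dendritic and axonal membrane delivery, had a change of 0.085. Rab37, below the negative control median on every array, measured 4.83 and 6.52 on the TCQA arrays, against 5.61 and 5.17 on the water arrays. The TCQA arrays thus enclosed both water arrays. The change of Rab37 was 0.29 with all arrays, 1.13 without TCQA 1 and -0.56 without TCQA 2, so that it had no settled direction. Rab27a had a change of -0.0034.

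The synaptic members were close to the family as a whole, with 5 of 6 higher, 0 called and a median of 0.18. Rab3a, the main Rab of synaptic vesicles, measured 16.15 and 16.42 with TCQA, against 16.12 and 16.10 with water. Its change was 0.18 with an SE of 0.20 (limma, unadjusted p = 0.391), and the lower TCQA array lay barely above the higher water array. Rab3c, a second vesicle member, had a change of 0.18, Rab3d one of 0.12, and Rab3b one of 0.31 with an SE of 0.32. Rab3b measured 11.72 and 12.50 with TCQA, against 12.06 and 11.54 with water, so that the groups overlapped. Rab26, a vesicle-associated member linked to autophagy of synaptic vesicles, had a change of 0.20 and Rab27b one of -0.088. The class median was 0.26 without TCQA 1 and 0.035 without TCQA 2.

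The other 7 members were higher in 6 cases, 0 called, with a median of 0.33. Rab28, of cilia and photoreceptors, had a change of 0.46, and Rab40b and Rab40c, which carry a SOCS box of ubiquitin ligases, had changes of 0.41 and 0.37. For each of these genes water 1 was the lowest array and the groups did not overlap. Rab23, a brake on Hedgehog signalling, measured 9.90 and 10.66 with TCQA, against 10.06 and 9.99 with water. Rab39, below the negative control median, had a change of -0.53 with an SE of 0.36. The median over these genes was 0.22 without water 1.

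The direction of small changes was not firm: 21 of 56 members changed sign in at least 1 fit with an array left out. It was 12 members without TCQA 2, 9 without water 1, 4 without water 2 and 3 without TCQA 1, some of them in more than 1 fit. Those named above that changed sign were Rab11a, Rab12, Rab18, Rab23, Rab24, Rab1b, Rab3b, Rab5b, Rab5c, Rab6a, Rab6b, Rab10, Rab27a, Rab27b, Rab37 and Rab38. Rab3b was -0.082, Rab23 -0.12 and Rab12 -0.081 without TCQA 2, and Rab6a was -0.061 without water 1. Paralogues did not share one pattern. Of 13 groups of members with the same number, 29 genes in all, 8 had every gene higher after TCQA and 1, Rab27a and Rab27b, had both lower. In the others, such as Rab1 and Rab7, signs were mixed. The 2 Rab9 genes were alike in change (0.50 and 0.51), whereas the 2 Rab2 genes had changes of 1.17 and 0.21.

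The small displacement of the family differed between ranges of signal. Of the 23 brightest members 22 were higher after TCQA (95.7%), Rab31 being the exception at -0.085, with a median of 0.18. Rab4a was among these 22. Of all 3220 clusters in that range 59.6% were higher, with a median of 0.053. In the middle range 11 of 18 members (61.1%), Rab2b among them, were higher with a median of 0.29. Of all clusters in that range 58.1% were higher, with a median of 0.051. Below the negative control median 7 of 15 members were higher (46.7%), against 42.3% of all clusters, and the members' median was -0.045. The count of 22 of 23 was 15 without water 1 and 17 without TCQA 2, and it was 15 when TCQA 1 was set against water 2 alone. Without water 1 the share in the middle range was 66.7%, about that of the brightest (65.2%).

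**Figure D4:**
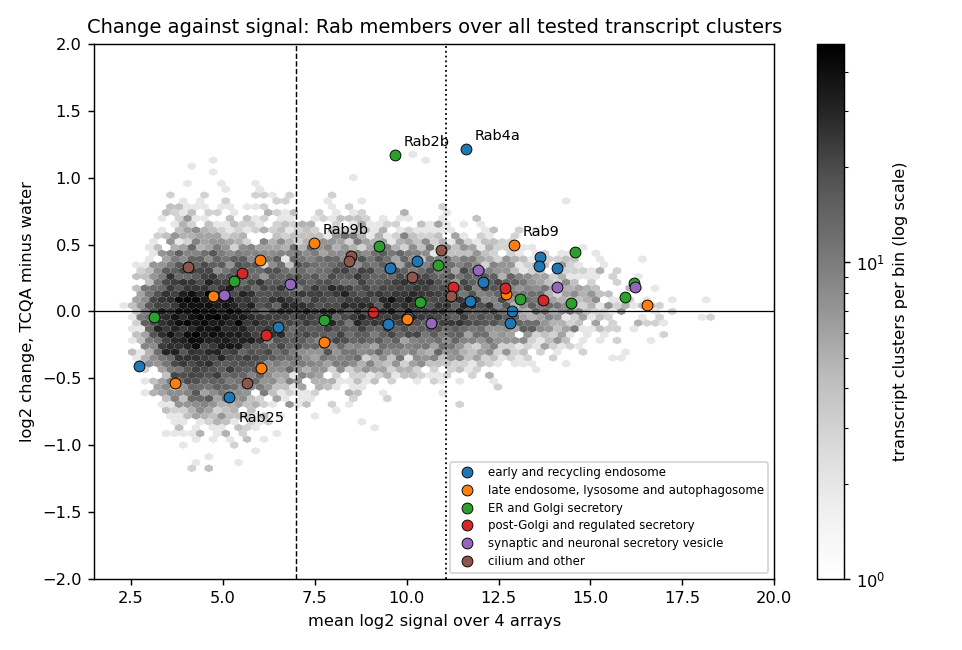
Log2 change, TCQA minus water, against mean log2 signal over the 4 arrays for all tested clusters (grey, shaded by number, changes beyond 2 in either direction not drawn) and the 56 members (coloured by compartment). The dashed line marks the median (6.98) and the dotted line the 95th percentile (11.06) of the negative controls; right of the dotted line 22 of 23 members lie above 0, and Rab4a and Rab2b lie above the bulk of the clusters.

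Groups that did not overlap were also counted. Both TCQA arrays lay above both water arrays for 22 of 56 members (39.3%), against 19.9% of all clusters. Without Rab4a and Rab2b, whose differences led to the choice of the family, it was 20 of 54 (37.0%). The share of all clusters rose with signal and is not matched to the family. It was 13.1% below the negative control median, 25.0% in the middle range and 29.9% in the brightest. Of the members in these ranges, Rab4a and Rab2b included, it was 26.7%, 44.4% and 43.5%. Both TCQA arrays lay below both water arrays for 5 members (8.93%), against 19.2% of all clusters. Rab25, Rab20, Rab7b, Rab32 and Rab31 were these 5, of which only Rab31 had a signal above the negative control median.

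The displacement of the family was largest on 2 arrays. TCQA 2 was the highest array for 26 of 56 members and water 1 the lowest for 21. The mean deviation of the members from their 4-array mean was 0.019 in TCQA 1 and 0.13 in TCQA 2, against -0.11 in water 1 and -0.038 in water 2. Leaving out 1 TCQA array turned the count of 40 higher members to 41 (TCQA 1) or 36 (TCQA 2), and leaving out 1 water array to 35 (water 1) or 42 (water 2). With TCQA 1 set against water 2 alone, 33 of 56 members were higher with a median of 0.059, against 51.1% of all clusters. In that pair of arrays Rab4a differed by 1.65, Rab2b by 0.81, Rab9 by 0.72, Rab9b by 0.45 and Rab25 by -0.60.

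The same arrays stood apart in several markers of tissue. Olfactory bulb markers had a mean deviation of 1.15 in TCQA 2, with 6 of 8 higher between the groups and summed linear signals of 2763 to 6034 after TCQA and 2494 to 3704 after water. Striatal markers had a mean deviation of 0.93 in water 1, with 9 of 10 lower between the groups and sums of 148000 to 204100 after TCQA and 183600 to 370900 after water. Myelin markers were lower for 8 of 10 genes, with sums of 165600 to 179500 after TCQA and 190000 to 291200 after water. Choroid plexus and ependyma markers were lower for 10 of 10 genes, 7 of them called and 6 past the submitters' criteria. Their sums were 3820 to 45070 after TCQA and 160500 to 220000 after water. Thalamic markers were lower for 7 of 9 genes, 3 of them called, with sums of 4780 to 6985 after TCQA and 7372 to 11410 after water. Of myelin markers 1 was called, and of olfactory bulb and striatal markers 0, against 7.37% of all clusters.

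Markers of neurons, the cells in which synaptic Rab members are abundant, were compared in the same way. In the excitatory neuron list 10 of 11 genes were higher (median 0.29), 2 of them called. The list was low in water 1 alone (mean deviation -0.55), while water 2 (0.14) was close to TCQA 1 (0.24) and TCQA 2 (0.16). Its sums overlapped, 502200 to 551900 after TCQA and 483100 to 636700 after water. In the inhibitory neuron list 9 of 12 genes were higher, 1 of them called. The list was highest in TCQA 2 (0.40), with sums of 75750 to 78640 after TCQA and 70330 to 79040 after water. Endothelial markers were higher for 6 of 8 genes, 2 called higher and 1 called lower, with sums that did not overlap, 43550 to 45310 after TCQA and 28540 to 29670 after water. Calls made up 18.2% of the excitatory, 8.33% of the inhibitory and 37.5% of the endothelial list, against 7.37% of all clusters. In the glial lists 6 of 9 astrocyte genes, 8 of 9 microglia and macrophage genes and 4 of 6 oligodendrocyte precursor genes were lower. No listed marker was at 0 on any array. The part of these differences in tissue in the Rab values was not tested, and in a bulk sample fewer cells of a type and less RNA per cell cannot be told apart.

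**Figure D5:**
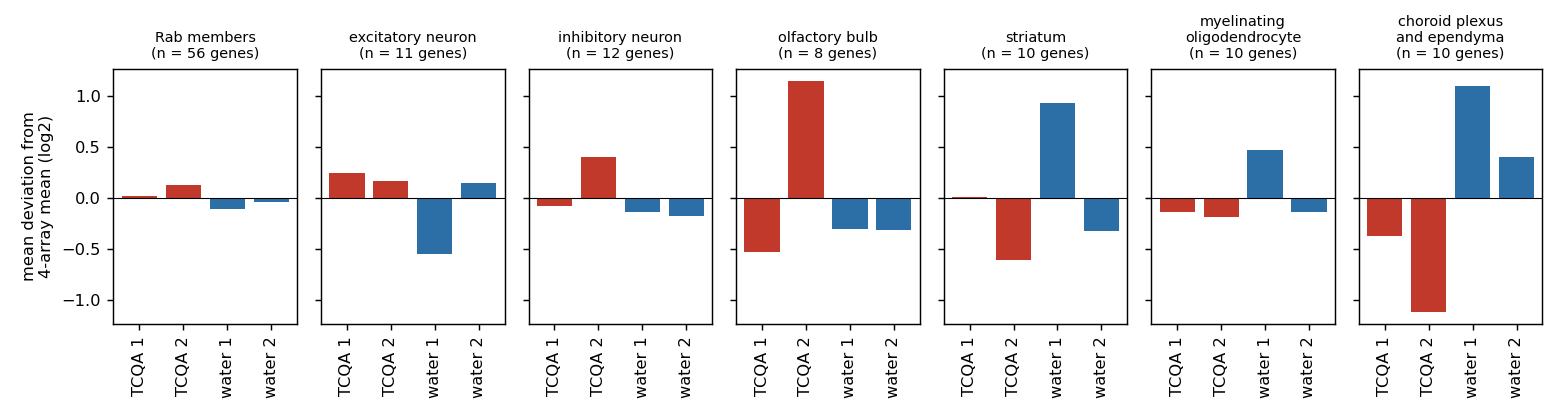
Mean deviation from the 4-array mean (log2) on each array for the 56 Rab members and for marker lists of 2 neuron classes, olfactory bulb, striatum, myelinating oligodendrocytes and choroid plexus, TCQA arrays in red left of water arrays in blue. The Rab members deviate by at most 0.13, highest in TCQA 2 and lowest in water 1, the arrays that stand apart for olfactory bulb and striatal markers.

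The genes that load, switch off and read Rab proteins were set beside the family as a whole. Of the 56 Rab members 71.4% were higher, with a median of 0.15. Of 187 listed regulators and effectors 171 were measured. Of these 114 (66.7%) were higher after TCQA with a median of 0.099, and 6 (3.51%) were called, 4 higher and 2 lower, under the 7.37% of all clusters. Without water 2 the count of 6 was 13. None met the submitters' joint criteria. Exchange factors held 5 of the 6 calls among 45 measured genes (11.1%), 3 higher and 2 lower. Dennd4b, an exchange factor for Rab10, measured 10.03 and 9.87 with TCQA, against 9.47 and 9.44 with water, a change of 0.50 (limma, unadjusted p = 0.0358). Rpgr, a ciliary protein that binds Rab8a, had a change of 0.53 (limma, unadjusted p = 0.0326). Dennd2c and Dennd2d, of the same DENN domain family, had changes of -0.63 and -0.68 with all arrays below the negative control median.

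Among synaptic effectors 10 of 14 were higher and 1 (7.14%) was called, about the 7.37% of all clusters. Rims3, a short RIM protein of the active zone, measured 10.28 and 10.17 with TCQA, against 9.62 and 9.74 with water, a change of 0.54 (limma, unadjusted p = 0.0259). Syn1, a synaptic vesicle phosphoprotein, had a change of 0.42 and was not called.

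The other lists held 0 calls by limma with an unadjusted p under 0.05. Of 36 TBC-type activating proteins 24 were higher, with Tbc1d8b at 0.67, Tbc1d30 at 0.44 and Tbc1d8 at -0.54. Of 43 endosomal effectors 26 were higher, with Vps8, a subunit of the early endosomal tether CORVET, at 0.41 and Rabep2, related to the Rab4 and Rab5 effector Rabep1, at 0.34. Of 27 Golgi and secretory effectors 15 were higher, with the Golgi tethers Golgb1 and Golga5 at 0.39 each and Sytl4, a Rab27 effector of secretory granules, at -0.70 below the negative control median. Of 8 genes of prenylation, escort and recycling 7 were higher, with Rabif at 0.40, Chml, a Rab escort protein, at 0.41 and Gdi2, a GDP dissociation inhibitor, at 0.15.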

How the data were processed

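The authors deposited log2 signals per transcript cluster of 1-colour Clariom S arrays, made from 100 ng of RNA with SST-RMA in version 4.0.2 of the Transcriptome Analysis Console; this follows the submitters' design text, and RMA and limma stand in their processing notes. SST-RMA equalises the arrays and widens fold changes relative to plain RMA, so the values hold no depth per array, and precision is limited by how few arrays there are. The authors' build was not given in the sources used here. Of 28846 rows, 19572 carried 1 gene symbol in the platform annotation, and all were matched by gene identifier to RefSeq. Groups came from the sample titles. limma 3.58.1 in R 4.3.3 (lmFit, eBayes, 2-sided, no trend, no block) was fitted to all of them, with Benjamini-Hochberg adjustment. On 10 simulated data sets of 19572 clusters for this comparison, a log2 change of 1.5 reached an unadjusted p under 0.05 in 98.2% of cases, and 56.6% passed adjustment. The simulated noise was independent between clusters and held no differences in tissue. A change of 1.5 is above that of every member, of which the largest was 1.22, so these shares do not apply to the members. Members, lists and tests were chosen with earlier results of these data known. Members were given array by array where called, or where groups did not overlap with over 1.5-fold, with their same-number paralogues; up to 4 genes with the smallest p were named per regulator list. Other members described array by array were picked with their values known. Alternatives covered the variance prior, dim clusters, scaling, a replicate block, rows per symbol and each array left out. Plots used matplotlib 3.10.9 under Python 3.11.15.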

Additional observations from a re-analysis of the deposited data

How the results depend on the processing

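Counts of members here include Rab4a and Rab2b, whose differences led to the choice of the family. The number of members with an unadjusted p under 0.05 depended on the variance prior and on single arrays. It was 5 in the fit described, 9 with a mean-variance trend (8 higher, adding Rab1a, Rab11b, Rab14, Rab28 and Rab5a and losing Rab9b; 8.12% of all clusters) and 3 with a prior over every row of the table (Rab4a, Rab2b and Rab25); under that prior 5.03% of all clusters were called. With an array left out it ranged from 3 to 6, the lowest without TCQA 2 and without water 2. The members past the submitters' criteria numbered 1 to 2 in those fits, 1 without TCQA 2. Without TCQA 1 the count of 2 held Rab2b and Rab37, not Rab4a. These fits take a lone array to be as variable as the other group. The median change of the members was 0.0731 to 0.222 with an array left out, lowest without TCQA 2, and 0.0585 for TCQA 1 against water 2, a setting chosen after seeing the data. Called regulators and effectors numbered 6, against 10 with the trend and 4 to 13 with an array left out, most without water 2. In limma 0 members passed adjustment in any of these fits. Quantile normalization gave 38 higher members and centring 39. Replicate numbers are shared by the groups, but nothing ties them (correlation of deviations -0.0032 across genes), and with a replicate block 5 members were called, with Rab32 in place of Rab9b. Of the 56 members 21 changed sign in at least 1 fit with an array left out and 2 in the other alternatives. One row per symbol made the averaging of rows idle for members. Signals below the negative control median limit what can be said of 15 members.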

Other observations

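All 4 X-linked members, Rab9, Rab9b, Rab33a and Rab39b, were higher after TCQA, with a median log2 change of 0.49, against 36 of 52 autosomal members with a median of 0.12. This grouping was chosen after the values were seen. The 2 sets differ in signal: all 4 X-linked members lay above the negative control median. The autosomal members include the 15 below it, of which 7 were higher. Rab39b was -0.12 without TCQA 2. Of X-linked genes at or above the negative control median 61.9% were higher (n = 360, median 0.077), against 58.5% of autosomal genes in that range (n = 9441, median 0.051).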
